A study of Drosophila melanogaster with 24 samples.

Results

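A set of 7 basic helix-loop-helix (bHLH) genes of neural development was followed in Drosophila melanogaster embryos in which the Notch and Ras pathways had been switched on. The members are ac, sc, l(1)sc and ase of the achaete-scute complex, together with ato, tap and Oli. They are the 7 genes with these symbols in the platform annotation, listed by their role and with earlier results of these data known, among 10844 named genes on the array. Each is read by 1 probe set, and all 7 are among the 5736 rows tested.

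The study addressed where Notch and receptor tyrosine kinase signals meet in the embryo's transcription, and measured total RNA from whole embryos on 24 Affymetrix DrosGenome1 arrays. Homozygous arm-GAL4 females were crossed to males homozygous for UAS-NotchICD and UAS-Ras1V12 (here combined), UAS-NotchICD (Notch), UAS-Ras1V12 (Ras) or to w1118 males (control), so that every embryo, controls included, carried arm-GAL4. GAL4 is a yeast transcription factor that turns on transgenes behind UAS sites. NotchICD is the intracellular fragment of the receptor, which acts without ligand, and Ras1V12 is a permanently active form of the GTPase Ras1. The armadillo promoter drives GAL4 throughout the embryo at moderate strength, so the transgenes were not limited to the neuroectoderm. Each cross was sampled in a late window, 7 h to 8 h after egg lay (stages 11 to 12), and an early one that began at 5 h 45 min and ended at 6 h 45 min (stages 10 to 11), with 3 arrays per cross and window. Per the labels each collection pooled approximately 500 embryos kept at 25°C, and RNA came from independent experiments.

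Proneural bHLH proteins give cells of the ectoderm the competence to become neural precursors. They bind E-box DNA as dimers with Daughterless, and within a proneural cluster Notch signalling shuts them off in all cells but the future neuroblast or sense organ precursor, through the Enhancer of split repressors. ac, sc and l(1)sc act in this first step, in the ventral neuroectoderm and in sense organ clusters, and l(1)sc also marks the clusters of mesodermal cells from which muscle progenitors arise. ase is switched on afterwards, in the neural precursors themselves. ato is the proneural gene of chordotonal organs and photoreceptors. tap and Oli encode relatives of vertebrate neurogenins and Olig proteins and are expressed in the developing nervous system after precursors have formed.

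Values below are the deposited log2 expression values, 1 per probe set and array. The median probe set of an array had a value of 4.03 to 4.21, and 5 was reached by 5369 to 5677 probe sets of each array, so a level near 4 is that of a middling probe set of the array. The transgenes UAS-NotchICD and UAS-Ras1V12 were not analysed here, and the cross labels were not checked against them. The GAPDH control probe sets were brighter at their 3' than at their 5' end, a sign of RNA integrity that also follows the transcript, by 1.98 ± 0.579 in combined, 1.61 ± 0.146 in Notch and 2.44 ± 0.456 in Ras arrays of the late window, against 3.17 ± 0.684 in late control arrays (SD, n = 3 each). The GAPDH group means lay between 0.693 and 1.02 in the early window. The same difference for the actin control probe sets differed less, with group means from 0.431 (combined) to 0.645 (control) late. Early, the actin means ran from 0.581 (Ras) to 0.608 (control). The part of either measure in the results was not tested.

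Activated Notch lowered most of the 7 genes, and did so unequally. In the late window 4 of 7 were lower in Notch than in control embryos (ase, ato, tap and Oli), where 7.5% of all rows were called lower, and in the early window 6 of 7 were lower (all but l(1)sc), where 3.49% of rows were called lower. ac, tap and Oli passed the filter on low values only through groups where they are high, so the counts and medians over the 7 genes are descriptions. Called here means an adjusted p under 0.05 in limma, by Benjamini-Hochberg over all rows of a comparison. The median change of the 7 genes was -0.75 log2 units late, against 0.01 over all rows, and -1.16 early, against -0.04 over all rows. The late median is the value of ato, and without late Notch replicate 3 it was -0.34. All 3 Notch values lay below all 3 control values for 4 of 7 genes late, beside 13.2% of all rows, and for 6 of 7 genes early, beside 11.7% of all rows. Arrays of whole embryos cannot tell fewer expressing cells from less RNA per cell.

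Active Ras alone gave few calls. In the late window 1 of the 7 genes, l(1)sc, was higher in Ras than in control embryos, where 1.1% of all rows were called higher. In the early window limma called 0 of 7, where 0.366% of rows were called in either direction, and 1 of 7 (ac) had an unadjusted p under 0.05. With both transgenes, 3 of 7 genes were lower late (ase, tap and Oli) and 1 was higher (l(1)sc), where 7.51% of rows were called lower and 7.64% higher. Early, 6 of 7 were lower in combined embryos, where 4.43% of rows were called lower, and the values of all 7 lay below those of control without overlap, beside 14.4% of all rows. These comparisons share their control arrays.

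**Figure D1:**
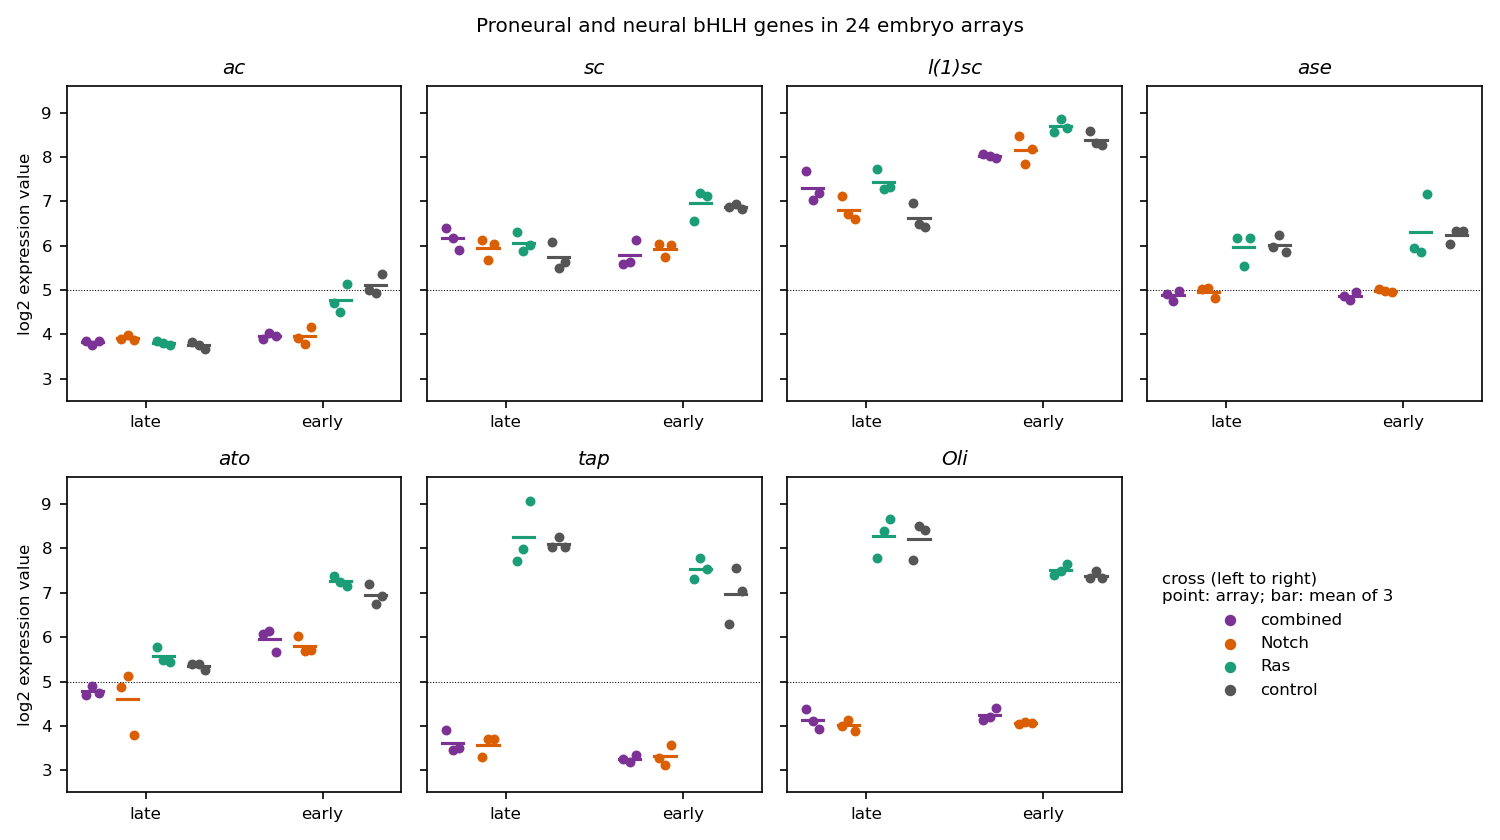
Log2 expression value (y axis) of each gene in each of the 24 arrays (points), with the mean of 3 arrays as a bar, by window and cross on the x axis. The dotted line marks a value of 5. tap and Oli lie at 3.11 to 4.41 in every combined and Notch array and at 6.30 to 9.08 in every Ras and control array, while l(1)sc overlaps between Notch and control in both windows.

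**Figure D2:**
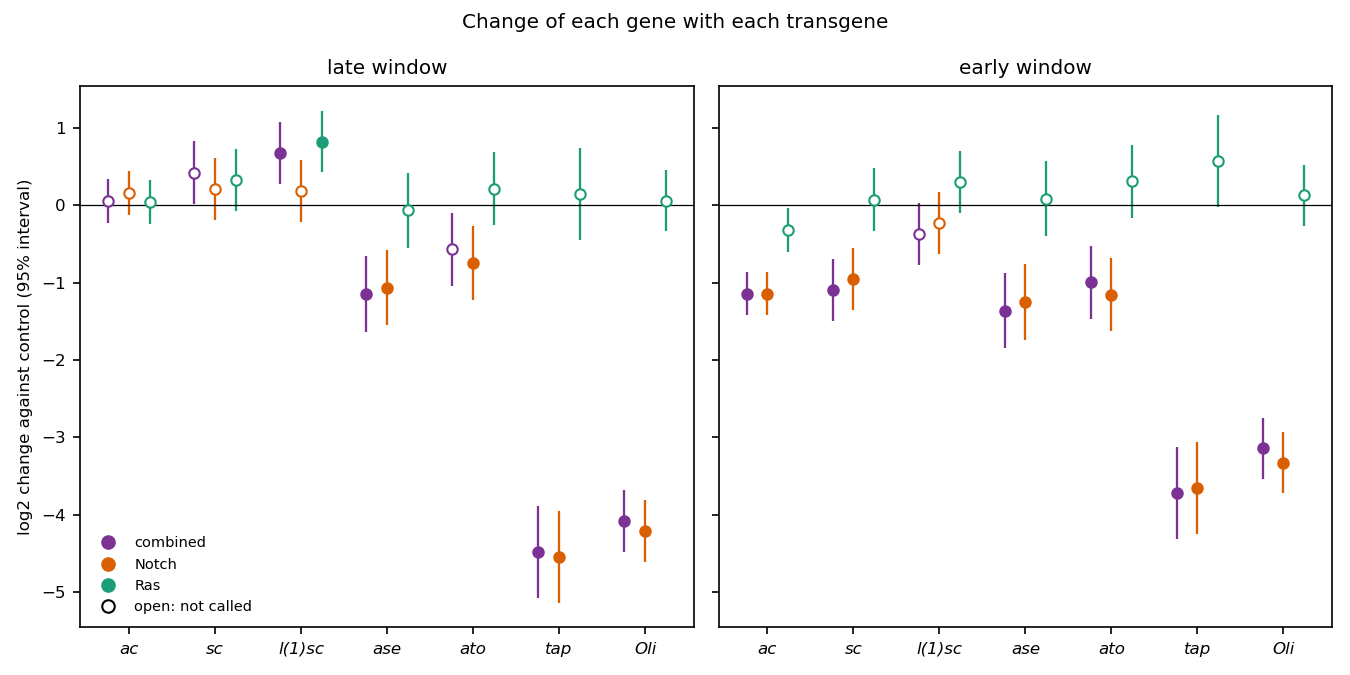
Log2 change against control (y axis) of the 7 genes in combined, Notch and Ras embryos, with 95% intervals of the limma fit (n = 3 arrays per group), late window left and early window right. Filled points were called at an adjusted p under 0.05. tap and Oli carry the largest decreases of the 7 in both windows.

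The first-acting proneural gene ac was dim on these arrays. In the late window its values were 3.85, 3.75 and 3.84 in combined, 3.91, 3.99 and 3.87 in Notch, 3.86, 3.81 and 3.75 in Ras and 3.84, 3.77 and 3.68 in control embryos. In the early window they were 3.90, 4.03 and 3.96 in combined, 3.92, 3.79 and 4.17 in Notch, 4.70, 4.51 and 5.15 in Ras and 5.00, 4.94 and 5.37 in control embryos. Early control and early Ras embryos stood above all others, and the other 6 groups lay together near the array medians. ac reached 5 in only 3 of 24 arrays, all of them in those 2 groups, so it passed the filter on low values only through the groups where it is high. Late, the change with Notch was 0.16 ± 0.13 (adjusted p = 0.508) against a control level of 3.76 ± 0.08 (SD, n = 3), and the Notch values lay just above the control values. Early, ac was lower in Notch than in control embryos by a log2 change of -1.14 ± 0.13 (SE, limma, adjusted p = 3.95e-06), with the combined change of -1.14 ± 0.13 equal to that size (adjusted p = 3.57e-06). With Ras alone it was -0.32 ± 0.13, which limma did not call (adjusted p = 0.796, unadjusted 0.0285), and the early Ras and control values overlapped.

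sc, the neighbour of ac, stood out in the same groups. Late values were 6.41, 6.18 and 5.90 in combined, 6.14, 5.67 and 6.05 in Notch, 6.30, 5.89 and 6.01 in Ras and 6.09, 5.49 and 5.64 in control embryos. Early values were 5.58, 5.64 and 6.14 in combined, 6.04, 5.74 and 6.01 in Notch, 6.57, 7.18 and 7.12 in Ras and 6.87, 6.95 and 6.83 in control embryos. Only early Ras and early control stood apart, and each neighbouring pair among the other 6 groups, ordered by mean, overlapped. Late, no change against control was called, at 0.42 ± 0.19 in combined (adjusted p = 0.172), 0.21 ± 0.19 in Notch (adjusted p = 0.554) and 0.33 ± 0.19 in Ras embryos (adjusted p = 0.673, limma). The early change was -1.09 ± 0.19 in combined (adjusted p = 0.000533) and -0.95 ± 0.19 in Notch embryos (adjusted p = 0.00276), both against control in limma. With Ras it was 0.07 ± 0.19, an interval of -0.33 to 0.48.

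l(1)sc, the proneural gene with the broadest part in forming embryonic neuroblasts, did not pass the test with Notch in either window. Late values were 7.68, 7.03 and 7.18 in combined, 7.12, 6.70 and 6.60 in Notch, 7.73, 7.28 and 7.32 in Ras and 6.96, 6.48 and 6.43 in control embryos. All 3 Ras values and all 3 combined values lay above all 3 control values. The rise was 0.82 ± 0.19 log2 units with Ras (limma, adjusted p = 0.0217) and 0.68 ± 0.19 with both transgenes (adjusted p = 0.019), while Notch alone gave 0.19 ± 0.19 (adjusted p = 0.611, interval -0.21 to 0.59). Replicate 1 was the brightest late array for l(1)sc in each of the 4 crosses. Arrays of 1 replicate number were taken as parallel collections, which is inferred from the protocols and from how the arrays deviated together. Within replicate numbers 1, 2 and 3 the late difference between Ras and control was 0.77, 0.80 and 0.90. Early values were 8.06, 8.03 and 7.97 in combined, 8.48, 7.83 and 8.17 in Notch, 8.56, 8.86 and 8.66 in Ras and 8.58, 8.31 and 8.26 in control embryos. Notch and control overlapped, and the change of -0.22 ± 0.19 (limma, adjusted p = 0.818) had an interval of -0.62 to 0.18, which does not reach the early changes of ac and sc. The 3 combined values lay below the control values, at a change of -0.37 ± 0.19 that was not called (limma, adjusted p = 0.33).

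The late rise of l(1)sc with Ras was called under some ways of estimating the spread and not under others. In limma its adjusted p was 0.113 with 1 fit per window and 0.179 with only the arrays compared, and 0.104 to 0.13 without late control replicate 2 or 3 or late Ras replicate 1. For combined embryos those values were 0.066, 0.0949 and, without late control replicate 2 or 3 or late combined replicate 1, 0.0776 to 0.13. Of the muscle markers, 2 of 6 tested were higher in late Ras embryos, where 1.1% of all rows were called higher. They were the mesodermal bHLH gene twi, by 1.50 ± 0.13 log2 units (limma, adjusted p = 2.72e-07), and the myogenic bHLH gene nau, by 1.77 ± 0.25 (adjusted p = 0.000233, and 0.0753 with only the arrays compared). The summed log2 level of the 6 ranged from 32.8 to 42.3 over late Ras arrays and from 26.2 to 40.8 over late control arrays, which overlap. In late combined embryos, where l(1)sc was also higher, 7.64% of all rows were called higher and 7.51% lower. There 1 of the 6 markers was higher and 3 were lower (median change -1.83), at sums of 27.7 to 30.1. Their part in the l(1)sc results was not tested.

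The precursor gene ase separated the crosses in both windows. Late values were 4.91, 4.74 and 4.98 in combined, 5.03, 5.04 and 4.82 in Notch, 6.17, 5.54 and 6.18 in Ras and 5.98, 6.23 and 5.87 in control embryos. Early values were 4.87, 4.78 and 4.96 in combined, 5.01, 4.98 and 4.96 in Notch, 5.95, 5.85 and 7.16 in Ras and 6.04, 6.33 and 6.33 in control embryos. Every combined and Notch array lay below every Ras and control array. Against control, ase was lower by a log2 change of -1.15 ± 0.23 late and -1.36 ± 0.23 early in combined embryos (limma, adjusted p = 0.00138 and 0.000391). In Notch embryos the changes were -1.06 ± 0.23 late and -1.25 ± 0.23 early (limma, adjusted p = 0.0028 and 0.00118). Early Ras replicate 3, at 7.16, stood above the other 2 Ras arrays by more than 1 log2 unit, and the mean change with Ras was -0.06 ± 0.23 late and 0.09 ± 0.23 early.

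ato, the proneural gene of chordotonal organs, was lower with Notch in both windows and also fell with time. Late values were 4.70, 4.90 and 4.74 in combined, 4.88, 5.13 and 3.80 in Notch, 5.79, 5.48 and 5.44 in Ras and 5.40, 5.40 and 5.26 in control embryos. Early values were 6.07, 6.14 and 5.67 in combined, 6.02, 5.68 and 5.70 in Notch, 7.39, 7.24 and 7.15 in Ras and 7.19, 6.75 and 6.92 in control embryos. Combined and Notch arrays lay below control arrays without overlap in each window. Late, the change with Notch was -0.75 ± 0.23 (limma, adjusted p = 0.0309), and replicate 3 alone showed a difference of -1.46 where replicates 1 and 2 gave -0.52 and -0.26. Without late Notch replicate 3, or without late control replicate 1 or 2, it was no longer called (adjusted p = 0.082 to 0.207). With both transgenes the late change was -0.57 ± 0.23, not called without the replicate block (limma, adjusted p = 0.106) and called with it (adjusted p = 0.037). The early decrease was -0.99 ± 0.23 in combined (limma, adjusted p = 0.00708) and -1.16 ± 0.23 in Notch embryos (adjusted p = 0.00193). Without early control replicate 1 or early combined replicate 3 the combined change missed the threshold (adjusted p = 0.0565 at most).

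tap was near the floor of the scale in every embryo collection with activated Notch. Late values were 3.91, 3.46 and 3.50 in combined, 3.29, 3.70 and 3.70 in Notch, 7.71, 7.98 and 9.08 in Ras and 8.04, 8.25 and 8.02 in control embryos. Early values were 3.25, 3.18 and 3.33 in combined, 3.28, 3.11 and 3.57 in Notch, 7.32, 7.79 and 7.54 in Ras and 6.30, 7.55 and 7.05 in control embryos. The 12 combined and Notch values all lay below every array's median, and the 12 others far above. tap passed the filter on low values only through its 12 Ras and control arrays. Late, the fitted change in Notch embryos was -4.54 ± 0.29 log2 units (limma, adjusted p = 1.82e-10), and combined embryos changed by -4.48 ± 0.29 (adjusted p = 2.4e-10). Early, it was -3.65 ± 0.29 in Notch (limma, adjusted p = 1.1e-08) and -3.71 ± 0.29 in combined embryos (adjusted p = 8.46e-09). Values this low give no exact fold. Against the filter level of 5, taken as a floor after the values were seen, tap was at least 8.61-fold lower late and at least 3.91-fold lower early in Notch than in control embryos. Ras alone changed tap by 0.15 ± 0.29 late and 0.58 ± 0.29 early, neither of them called.

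Oli had the same pattern. Late values were 4.39, 4.10 and 3.93 in combined, 3.999, 4.14 and 3.89 in Notch, 7.79, 8.38 and 8.66 in Ras and 7.73, 8.51 and 8.42 in control embryos. Early values were 4.14, 4.20 and 4.41 in combined, 4.03, 4.09 and 4.07 in Notch, 7.41, 7.50 and 7.64 in Ras and 7.34, 7.49 and 7.34 in control embryos. The low groups were again near the array medians, more than 3 log2 units below the others. The late change was -4.08 ± 0.19 in combined (limma, adjusted p = 1.63e-12) and -4.21 ± 0.19 in Notch embryos (adjusted p = 9.99e-13). Early, it was -3.14 ± 0.19 in combined (limma, adjusted p = 2.24e-10) and -3.33 ± 0.19 in Notch embryos (adjusted p = 7.97e-11). Against the same floor of 5, Oli was at least 9.31-fold lower late and at least 5.24-fold lower early in Notch than in control embryos. It too passed the filter only through its 12 Ras and control arrays. Ras gave 0.06 ± 0.19 late and 0.13 ± 0.19 early, with intervals of -0.34 to 0.46 and -0.27 to 0.53.

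Adding active Ras to activated Notch moved none of the 7 genes past the threshold. In limma 0 of 7 were called between combined and Notch embryos in either window, where 1.83% of all rows were called late and 0.227% early. At an unadjusted p under 0.05 there was 1 gene late and 0 early. That gene was l(1)sc, at 0.49 ± 0.19 log2 units late (limma, adjusted p = 0.353, and 0.0284 with the replicate block), higher in combined than in Notch embryos by 0.56, 0.33 and 0.58 within replicate numbers. Late combined and Notch values for tap differed by 0.06 ± 0.29, an interval of -0.53 to 0.65, and for Oli by 0.13 ± 0.19, an interval of -0.27 to 0.53. Neither interval comes near the size of the late Notch change of these genes against control. ac, tap and Oli lay near or below the array medians in both crosses. A further decrease could therefore not show, and a small rise could be hidden. For tap and Oli the values show only that Ras did not bring them back to the control level.

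Adding activated Notch to active Ras gave the opposite count. In the late window 4 of 7 genes were lower in combined than in Ras embryos (ase, ato, tap and Oli), where 6.24% of rows were called lower. The fitted changes were -4.63 ± 0.29 for tap and -4.14 ± 0.19 for Oli, which give no exact fold because combined embryos lay near the floor. ac, tap and Oli passed the filter on low values only through groups where they are high, so the counts here are descriptions. In the early window all 7 were lower, where 5.94% of rows were called lower, including l(1)sc at -0.67 ± 0.19 (limma, adjusted p = 0.027). Without any of the 3 early combined replicates or early Ras replicate 2 or 3, that l(1)sc call was lost (adjusted p = 0.0553 to 0.119). The late ato call (-0.79 ± 0.23, limma, adjusted p = 0.0255) was lost in a fit of the late window alone (adjusted p = 0.106), without late combined replicate 1 or 3 and without late Ras replicate 1 (0.0814 to 0.107).

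The interaction asked whether the combined change departed from the sum of the Notch and Ras changes on the log2 scale. In limma 0 of 7 genes departed in either window, where 0.227% of all rows were called late and 0.139% early, and 0 of 7 had an unadjusted p under 0.05. The departures ranged from -0.34 (l(1)sc) to 0.07 (Oli) late and from -0.64 (tap) to 0.32 (ac) early. Their standard errors ran from 0.19 to 0.40 with 3 arrays per group, and the largest departure, of tap early, had an interval of -1.48 to 0.20. With activated Notch alone ac, tap and Oli already lay near or below the array medians, so a further decrease with both transgenes could not show. The departures of ac, tap and Oli therefore do not tell whether the Notch and Ras effects add. ase, with means of 4.87 to 4.98 in combined and Notch embryos, lay just under the filter level of 5. Late ato lay under it too, at means of 4.78 in combined and 4.61 in Notch embryos. Those departures may be bounded in the same way, which was not tested.

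Between the windows the 7 genes of control embryos went different ways. Late against early, 4 of 7 were lower, where 13.1% of all rows were called lower, and 2 of 7 were higher, where 18.3% were called higher. The proneural genes fell: l(1)sc by a log2 change of -1.77 ± 0.19 (limma, adjusted p = 8.33e-07), ato by -1.60 ± 0.23 (adjusted p = 1.68e-05), ac by -1.34 ± 0.13 (adjusted p = 3.25e-07) and sc by -1.14 ± 0.19 (adjusted p = 0.000131). The later-acting genes tap (1.14 ± 0.29, adjusted p = 0.00449) and Oli (0.83 ± 0.19, adjusted p = 0.0022) rose in limma. ase changed by -0.21 ± 0.23, which was not called (limma, adjusted p = 0.53). Over all called rows the share that was higher late depended on the scaling: it was 58.3% in control embryos as deposited and 46.6% after quantile normalisation, but the calls of these 7 genes in controls did not change.

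In Ras embryos 4 of 7 genes were lower late (ac, sc, l(1)sc and ato), where 10.7% of rows were called lower, and Oli was higher, where 17.8% were called higher. tap, at 0.71 ± 0.29, was called only with the replicate block (limma, adjusted p = 0.069 without it and 0.0455 with it) or without late Ras replicate 1 (adjusted p = 0.0181). In combined and Notch embryos 2 of 7 genes were lower late, l(1)sc and ato in both crosses, where 13% of rows were called lower in combined and 9.99% in Notch embryos. The fall of l(1)sc was -0.72 ± 0.19 in combined embryos (limma, adjusted p = 0.00662) and -1.35 ± 0.19 in Notch embryos (adjusted p = 2.08e-05). ac, sc, tap and Oli, which changed between windows in controls, gave changes of -0.15 to 0.38 in combined and -0.05 to 0.25 in Notch embryos, none of them called. ac had a mean of only 3.96 in both early combined and early Notch embryos, near the floor, so a fall of ac could not show there.

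**Figure D3:**
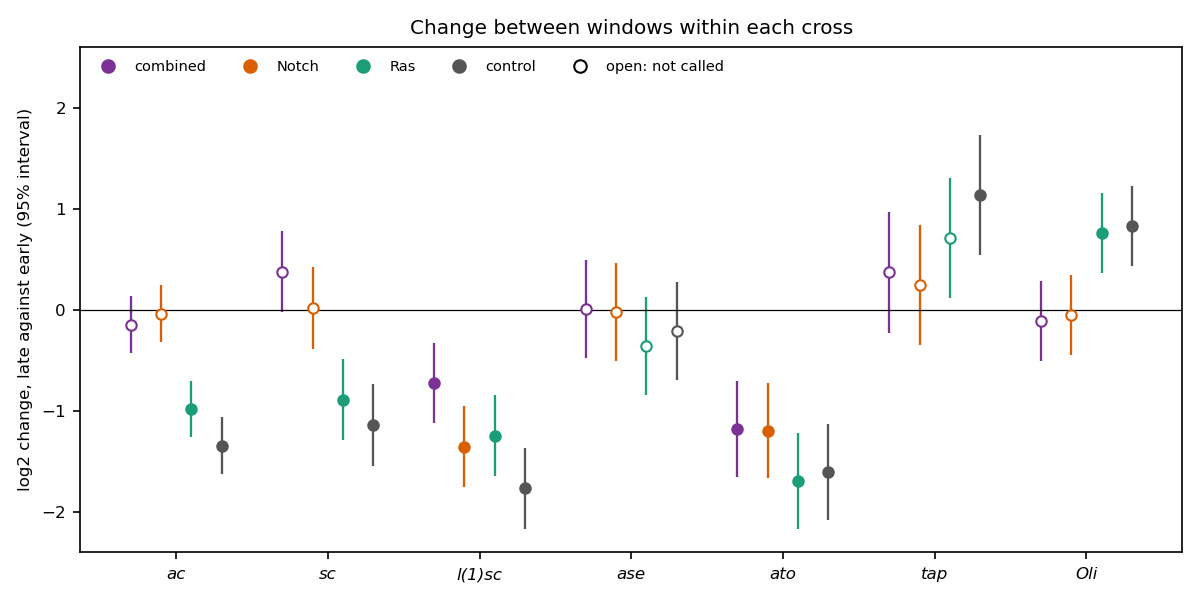
Log2 change of the late against the early window (y axis) for each gene within each cross, with 95% intervals of the limma fit (n = 3 arrays per group). Filled points were called at an adjusted p under 0.05. ac and sc fell by 0.89 to 1.34 in Ras and control embryos and were not called in combined and Notch embryos, while ato fell in all 4 crosses. In early combined and Notch embryos ac was already near the floor, so a fall could not show.

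The difference between windows was tested for each transgene effect, as the late minus the early log2 change against control. For Notch, 2 of 7 genes had a higher value late, ac (1.30 ± 0.19, limma, adjusted p = 0.000447) and sc (1.16 ± 0.27, adjusted p = 0.0314), where 0.54% of rows were called higher. For the combined cross 3 of 7 did, sc (1.52 ± 0.27, adjusted p = 0.00285), ac (1.20 ± 0.19, adjusted p = 0.000965) and l(1)sc (1.04 ± 0.27, adjusted p = 0.0428, limma), where 1.17% of rows were called higher. For Ras limma called 0 of 7, where 0.0697% of rows were called in either direction, and 0 had an unadjusted p under 0.05. Late control embryos were themselves low in both ac and sc, at 3.76 ± 0.08 and 5.74 ± 0.31 (SD, n = 3). That level of ac lies below every array's median, so a late decrease of ac could not show and its window differences are bounded by the floor. For sc, late control had the lowest of the 8 group means, and whether sc could fall further was not tested. For sc with Notch the call was lost without 9 of the 12 arrays it rests on (adjusted p = 0.053 to 0.1), and for l(1)sc in the combined cross without 10 of 12 (0.0635 to 0.135). The late minus early differences of tap and Oli with Notch were -0.89 ± 0.40 and -0.88 ± 0.27, neither of them called (limma, adjusted p = 0.429 and 0.128). For Oli the late minus early difference of the combined effect was -0.94 ± 0.27 (limma, adjusted p = 0.0756, and 0.0408 with the replicate block). Without late control replicate 1 both Oli differences were called (adjusted p = 0.0176 for Notch and 0.00906 for combined).

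**Figure D4:**
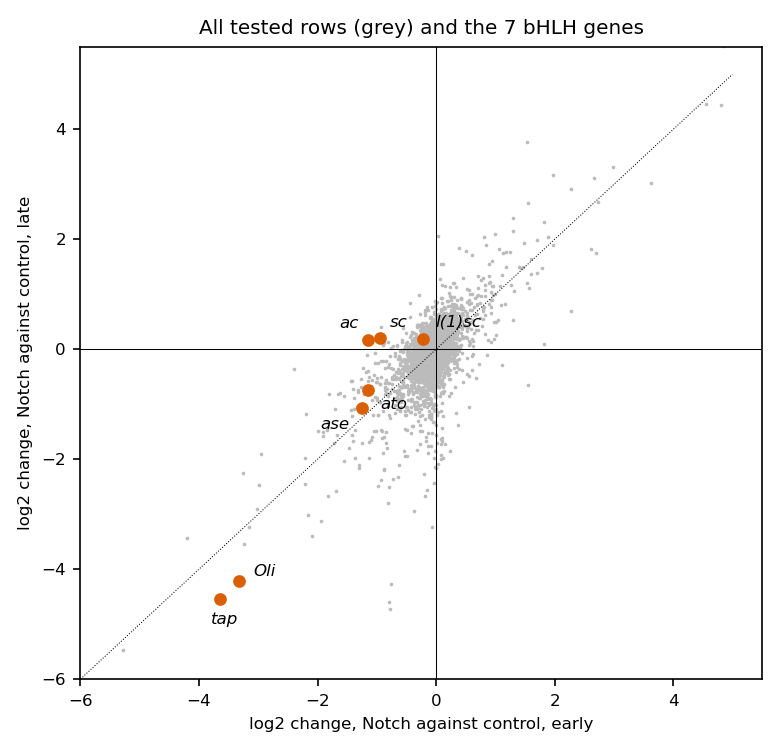
Log2 change of Notch against control embryos in the early window (x axis) and the late window (y axis) for all 5736 rows (grey) and the 7 genes (orange), with the line of equality dotted. tap and Oli lie at the lower left, ase and ato are below 0 in both windows, and ac and sc are below 0 early only.

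The order of the 8 group means differed between the genes. tap and Oli ran from late Ras and late control, through early Ras and early control, to the 4 groups with activated Notch. For Oli no array of 1 tier overlapped the next, and for tap only late Ras replicate 1 fell within the early Ras range. ase had 2 tiers, the Ras and control groups above the combined and Notch groups, with the windows mixed within each. ac and sc had early Ras and early control on top and the other 6 groups below, while l(1)sc had the 4 early groups above the 4 late ones. ato combined both orders, with early Ras and control first and late combined and Notch last. The spread of the 8 group means was 5.00 log2 units for tap, 4.27 for Oli, 2.66 for ato, 2.07 for l(1)sc, 1.45 for ase, 1.34 for ac and 1.21 for sc, beside a pooled SD within groups of 0.165 (ac) to 0.382 (tap).

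Across the 8 group means tap and Oli had a Pearson correlation of 0.996, ac and sc of 0.919, and ase correlated at 0.947 with both tap and Oli. l(1)sc was nearly uncorrelated with tap (0.0243) and Oli (0.0521), and correlated best with ato (0.870). These are descriptions over 8 points that share their arrays. In the RefSeq gene table ac, sc and l(1)sc are consecutive on the X chromosome and ase follows l(1)sc after Pgcl, while ato, tap and Oli lie elsewhere. Though close together, the 4 complex genes split the groups in 3 different ways. ac and sc shared the split of early Ras and early control from the rest, but not the full order of groups.

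The genes whose 8 group means were most like each member's were found among all tested rows with 1 symbol, members aside. For tap they were nerfin-1 (r = 0.996), a zinc finger gene of nascent neurons, insc (0.994), which orients neuroblast division, and CG8353 (0.991). For Oli they were insc (0.995), insb (0.995) and nerfin-1 (0.994), so that nerfin-1 and insc appeared for both. For ase they were the Runx cofactor gene nvy (0.990), the neuroblast transcription factor gene wor (0.987) and meru (0.986). Other probe sets of nerfin-1 and meru gave lower values, 0.976 with tap and Oli for nerfin-1 and 0.908 with ase for meru.

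The proneural genes had other company. For l(1)sc the nearest were dre4 (0.994), spag (0.989) and bib (0.985), the last a neurogenic gene. For ato they were Fen1 (0.986) and Rrp1 (0.983), both of DNA repair or replication, and GstE7 (0.982). For ac they were the T-box gene Doc3 (0.978), Tango4 (0.975) and CG7564 (0.961), and for sc Rpn3 (0.920), NiPp1 (0.913) and CG9609 (0.911). Some of these genes varied little. Their group means spanned 0.19 log2 units for NiPp1, 0.27 for Rpn3, 0.31 for Tango4, 0.36 for CG7564, 0.43 for CG9609 and 0.49 for spag. The others spanned 0.73 (Rrp1) to 2.04 (bib).

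Genes that work with proneural proteins were then counted from lists chosen with earlier results of these data known. Of 11 tested genes for the bHLH partner and antagonists, 6 were higher and 2 lower in late Notch embryos (median change 0.64), where 6.22% of all rows were called higher and 7.5% lower. In early Notch embryos 6 were higher and 1 lower (median 0.69), where 1.94% were called higher and 3.49% lower. Of the 6 early rises, 4 were no longer called without early Notch replicate 2, and 3 without early Notch replicate 1 or early control replicate 2. The partner gene da itself, named for its role, changed by 0.16 ± 0.13 late and -0.04 ± 0.13 early and was not called. Late, the Enhancer of split repressor genes E(spl)m5-HLH (2.10 log2 units), E(spl)m7-HLH (1.79) and E(spl)m3-HLH (1.60) rose, and the related repressor gene Hey fell by 1.73. Early, the repressor gene dpn rose by 1.55 ± 0.27, E(spl)mbeta-HLH by 1.17 and E(spl)m5-HLH by 0.99, and hry fell by 1.32. dpn, which is also a neuroblast gene, was at -0.64 ± 0.27 late (limma, adjusted p = 0.131, and 0.0252 with the replicate block). The early calls of E(spl)mbeta-HLH and E(spl)m5-HLH were lost with 1 fit per window (adjusted p = 0.0541 and 0.0667), with only the arrays compared, and without early control replicate 2 or early Notch replicate 1 or 2 (adjusted p = 0.0507 to 0.173), and that of E(spl)m5-HLH also without a filter (0.0544). emc, named for its role as an inhibitor that titrates proneural proteins without binding DNA, rose by 0.64 ± 0.15 late and 0.69 ± 0.15 early (limma, adjusted p = 0.00583 and 0.00565), the early call being lost without early Notch replicate 2 (0.0528).

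Targets and cofactors of proneural proteins moved the other way with Notch. Of 12 tested, 9 were lower and 3 higher late (median -1.28), where 7.5% of all rows were called lower and 6.22% higher. Early, 9 were lower and 1 higher (median -1.31), where 3.49% of all rows were called lower and 1.94% higher. The late log2 changes were -5.47 for nerfin-1, -3.53 for insb, -3.43 for wor and -3.23 for insc. The early ones were -5.29 for nerfin-1, -4.20 for wor, -3.25 for insb and -3.16 for insc. The genes of 3 early steps of precursor selection, picked after their values were seen, were lower as well: the proneural co-activator gene sens (-1.57 ± 0.18 late and -1.91 ± 0.18 early), the ubiquitin ligase gene neur (-0.72 ± 0.19 and -1.19 ± 0.19) and the adaptor gene phyl (-0.99 ± 0.18 and -0.80 ± 0.18). neur's late call (limma, adjusted p = 0.0143) was lost with 1 fit per window (0.0534) and without late control replicate 2 (0.0671). esg, a snail-family gene, rose by 1.20 late and 1.53 early. Delta, the ligand with which a precursor inhibits its neighbours, was 0.66 ± 0.14 higher late and 0.44 ± 0.14 early (limma, adjusted p = 0.00179 and 0.0739, the early one 0.0309 with the replicate block), and with Ras it rose by 1.19 ± 0.14 late and 0.87 ± 0.14 early.

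**Figure D5:**
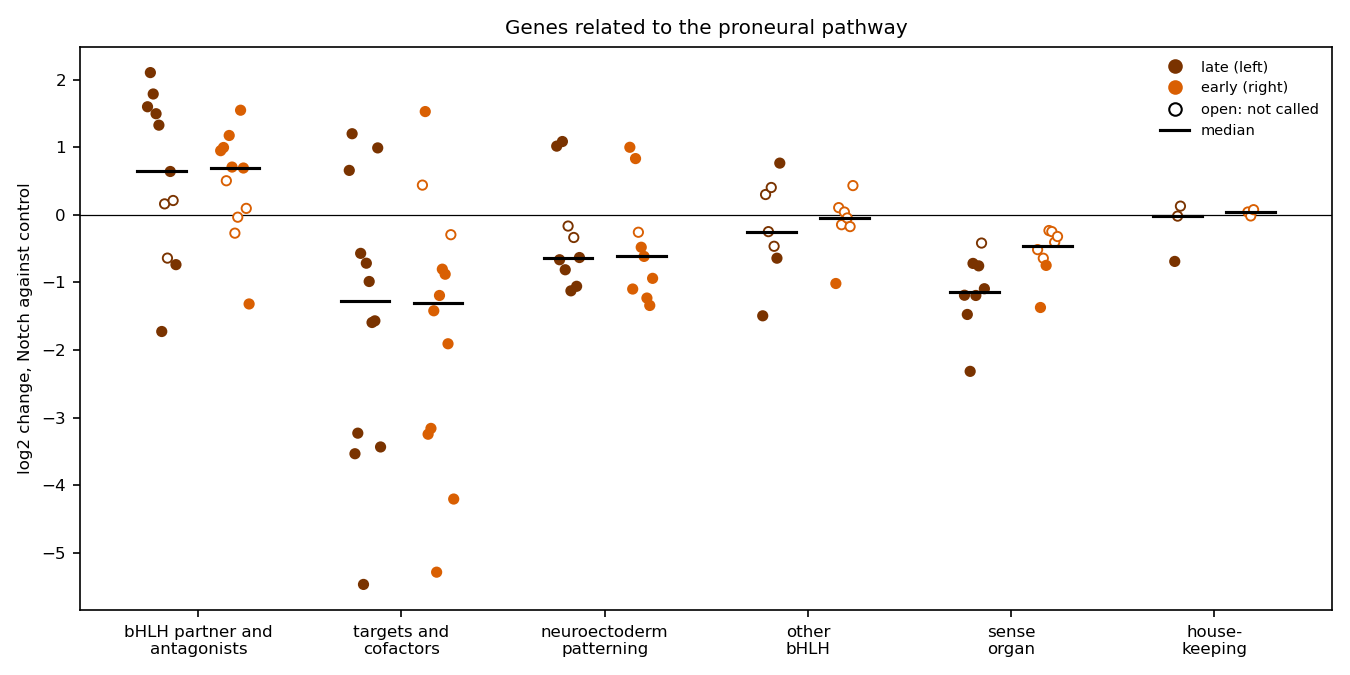
Log2 change of Notch against control embryos (y axis) for each tested gene of the lists on the x axis, late left and early right within each list, filled where called at an adjusted p under 0.05, with list medians as bars. The partner and antagonist list has medians of 0.64 late and 0.69 early, and the target and cofactor list of -1.28 late and -1.31 early.

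Upstream patterning genes of the neuroectoderm were divided. Of 9 tested, 5 were lower and 2 higher late with Notch (median -0.63), and 6 were lower and 2 higher early (median -0.62). Over all rows 7.5% were called lower and 6.22% higher late, and 3.49% lower and 1.94% higher early. The Sox genes SoxN (1.08 late, 0.83 early) and D (1.01 late, 1.00 early) were higher, and the column gene ind fell by 1.23 early. pnr, a GATA gene of the dorsal ectoderm that activates the achaete-scute complex in the thorax, fell by 1.06 late and 1.34 early. Of 8 tested genes listed for peripheral sense organs 7 were lower late (median -1.14), among them fne at -2.32, elav at -1.47, ham at -1.19 and cpo at -1.19. Early, 2 were lower (median -0.46), elav at -1.37 and gcm at -0.75. The list is not specific to sense organs. It holds elav and fne, also counted below as neuron markers, and gcm and repo, also counted as glial markers. cpo, at -0.52 ± 0.20 early (limma, adjusted p = 0.191), was also called with the replicate block (0.0199) and with 1 fit per window (0.0197).

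Most other bHLH genes on the list could not be compared. Of 24 listed, members aside, 7 passed the filter on low values: HLH54F, nau, twi, sage, crp, Mnt and Max. sim, trh, dei and Myc had no probe set of 1 symbol. The rest were on the array but did not pass. Among them were amos, cato and dimm, the nearest relatives in sense organ and neuroendocrine cells. With Notch 2 of 7 were lower late, HLH54F by 1.49 and the salivary gland gene sage by 0.64, and twi was 0.76 higher. Over all rows 7.5% were called lower late and 6.22% higher. Early, 1 of 7 was lower, HLH54F by 1.02, and 0 were higher in limma, where 3.49% of all rows were called lower and 1.94% higher. twi, at 0.43 ± 0.13 early, had an adjusted p of 0.054, and was called with the replicate block (0.0241), after array median centring (0.0338) or quantile normalisation (0.0166), with the stricter filter (0.0485) and without early control replicate 1 (0.0255). The list's medians were -0.25 late and -0.05 early, beside 0.01 and -0.04 over all rows. Of 6 housekeeping genes 3 were tested, and 1 of them, Gapdh1, was lower late with Notch (-0.69 ± 0.15) and 0 early in limma (0 also at an unadjusted p under 0.05).

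Markers of whole cell types moved beside these changes. Over all rows 7.5% were called lower and 6.22% higher in late Notch embryos, and 3.49% lower and 1.94% higher in early ones. Of 6 neuroblast markers other than ase, 5 were lower in late Notch embryos, and in early ones 5 were lower and 1, dpn, was higher. wor, insc, mira, pros and nerfin-1 are also counted above as targets and cofactors, and dpn among the antagonists. All 6 are thus genes already counted, not a further set. Their summed log2 level ranged from 31.8 to 33.1 over late Notch arrays against 46.9 to 47.6 over late control arrays, and from 33.5 to 34.8 over early Notch arrays against 47.2 to 47.7 over early control arrays. Late combined arrays gave 32.0 to 33.3 and late Ras arrays 46.4 to 49.3. Of the 5 neuron markers 2 were tested, elav and fne, of which 2 were lower late and 1 early, at summed levels of 12.1 to 12.5 in late Notch arrays against 15.0 to 17.3 in late control arrays. Among the other lists 4 of 5 hemocyte, 2 of 4 amnioserosa and 1 of 3 epidermis markers were lower late with Notch. Of 4 glial markers 2 were lower and 1 higher, at summed levels of 28.8 to 30.4 in late Notch arrays against 28.2 to 28.6 in late control arrays, and of 6 muscle markers 1 was lower and 1 higher. The part of these markers in the results on the 7 genes was not tested.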

How the data were processed

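Biotin-labelled RNA of 8 groups of 3 embryo collections was measured on 24 arrays. The authors deposited log2 values per probe set. GC-RMA and limma are named in the submitters' processing notes, with versions not given in the sources used here. GC-RMA draws dim probe sets together near a floor. Of 14010 probe sets, 44 controls were left out. Where a gene had several probe sets the one brightest on average stood for it, rows needed a log2 value of 5 in 3 arrays, and 5736 rows were tested. Symbols came from the platform annotation and neighbouring genes from RefSeq (Release 6).

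A linear model of 8 group means was fitted over all arrays in R 4.3.3 with limma 3.58.1 (16 residual and 4.09 prior degrees of freedom). The 19 comparisons were adjusted separately by Benjamini-Hochberg, and 0.05 was the threshold. Errors of changes are standard errors of this fit, pooled over the 8 groups, and n = 3 arrays per group limits precision. The fit was tested on simulated data. Members and gene lists were chosen with earlier results of these data known. Named were all members, the 3 genes nearest to each in group means, and up to 4 called genes per list with the largest change, with da, emc, Hey, sens, neur, phyl, Delta and list members at other times added for their role.

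Collections were made in parallel sets, per the labels' protocols. Arrays with the same replicate number deviated together within a window (18 of 18 pairs over 0.1 in each window, median r 0.454 late and 0.311 early). The numbers were therefore taken as pairs in the differences within replicate numbers and in the replicate block, an alternative. The main fit had no replicate block, so the reported tests and standard errors leave this pairing out. The alternatives were 2 scalings, 2 filters, all probe sets kept, a trended prior, 2 smaller fits, a replicate block and leaving out each array.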

Additional observations from a re-analysis of the deposited data

Results flagged for a closer look

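The effect of a transgene differed between the windows for 5 pairs of gene and cross in limma, given as the late minus the early log2 change against control. For Notch, ac differed by 1.30 and sc by 1.16. For the combined cross, ac differed by 1.20, sc by 1.52 and l(1)sc by 1.04. ac lay at or below the array medians in late control embryos and passed the filter only through early Ras and early control, so a late decrease could not have shown and its 2 differences do not tell whether the transgene effect differed. Adjusted p lay between 0.000447 and 0.0428. The change of ac with Notch was 0.16 late and -1.14 early, and that of l(1)sc in combined embryos was 0.68 late and -0.37 early. The sc call with Notch was lost without any 1 of 9 arrays, and the l(1)sc call without any 1 of 10, among the 12 each rests on. The cause was not tested.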

How the results depend on the processing

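Across 19 comparisons of 7 genes, 52 changes were called, 44 of them under every alternative in which the gene was tested, and 0 changed direction. ac, with 7 of the 52, was not tested after array median centring or with the stricter filter. With Ras against control late, 0 members were called with 1 fit per window or with only the arrays compared, and 0 to 1 leaving out arrays. For the Notch effect late minus early, 1 was called after array median centring, without a filter (sc at an adjusted p of 0.0577) and with a stricter filter, which ac did not pass, and 1 to 3 leaving out arrays. The replicate block gave 1 member for combined against Notch late, and besides the calls it gained in the report (ato, l(1)sc, tap and Oli, once each) it changed no other call of the 7 genes. ato late with Notch was also lost after quantile normalisation (adjusted p = 0.0554), without a filter (0.0555), with 1 fit per window (0.107) and with only the arrays compared (0.227). ato combined against control late was called with only the arrays compared (0.0143), ato combined against Ras late was lost without a filter (0.0526), and l(1)sc was lost without a filter in combined against Ras early (0.0578) and in the combined effect late minus early (0.0772, and 0.0622 after quantile normalisation). Of 59 calls of named related genes 49 were kept. The causes were not tested.

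With the replicate block, counts over all rows moved by over 1.5 times. Late, they were 1231 against 787 as reported for Notch, 281 against 124 for Ras, 211 against 105 for combined against Notch, 1072 against 648 for combined against Ras and 28 against 13 for the interaction. Early, they were 495 against 311, 44 against 21, 46 against 13, 1128 against 632 and 36 against 8 for the same comparisons, and 729 against 399 for combined against control. For the window differences they were 142 against 92 (Notch), 8 against 4 (Ras) and 235 against 146 (combined). With only the arrays compared, late counts were 520 for Notch, 22 for Ras, 558 against 869 for combined, 34 for combined against Notch, 351 for combined against Ras and 4 for the interaction. Early counts were then 11 for Ras, 613 for combined and 6 for combined against Notch, and 1077 against 1631 for late against early Notch and 2 for the Ras window difference. With 1 fit per window late counts were 75 for Ras, 55 for combined against Notch and 4 for the interaction. Filters gave 13 (stricter) for Ras early, 2 (stricter) and 22 (none) for the early and late interactions, and 2 (stricter) and 15 (none) for the Ras window difference. Scaling gave 13 for Ras early (centring) and 21 for combined against Notch early (quantile).

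The share of calls that were higher moved by over 10 percentage points with scaling in other comparisons: late against early, to 50.2% from 61.1% in combined (quantile), to 49.5% (quantile) and 50.5% (centring) from 64.9% in Notch, and to 44.2% from 62.5% in Ras embryos (quantile). It was 54.6% against 41.9% for combined against Notch late (centring), 18.7% against 33.7% for the Notch window difference (centring), 36.4% against 50% of the early interactions and 33.3% against 50% of the Ras window differences (quantile). The median of all rows moved by under 0.1 log2 units with either scaling. Levels near the array median, as for ac, carry little signal over background.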
